A study of Mus musculus with 10 samples.

Results

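The mitochondrial protein import machinery comprises the translocases, chaperones and peptidases that carry proteins made in the cytosol into mitochondria. Its genes were followed in cultures of mouse Th17 cells, helper T cells that make IL-17, with or without TMP269. This compound is a selective inhibitor of class IIa histone deacetylases, the family of HDAC4 and HDAC7. Members were chosen by symbol, by a rule that uses no measured value but was set with earlier results of these data known. They were the genes whose symbol starts with Tomm or Timm, together with Samm50, Mtx1, Mtx2, Pmpca, Pmpcb, Pam16, Dnajc19, Chchd4 and Gfer. This rule gave 35 of the 17493 genes in the deposited RNA sequencing table. Both groups were CD4 T cells from the spleen of C57BL/6 mice, started from naive cells on immobilised antibodies to CD3 and CD28, with 20 ng/mL of IL-6 and 2.5 ng/mL of TGF-beta, and kept for 48 to 72 h. One group received TMP269 before harvest, and the other, titled DMSO, was labelled as the control. Each group had 2 libraries. Neither the TMP269 dose nor its duration is stated in the labels. They also do not tell if replicates were separate animals or cultures, so the p-values reflect only the spread among these 4 libraries, which may be technical. The protocols name no sort for IL-17-producing cells, so each library may hold a mixture of activated CD4 T cells.

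Nearly all mitochondrial proteins are encoded in the nucleus and enter through the TOM complex of the outer membrane. From there, proteins with a cleavable presequence pass through the TIM23 complex into the matrix, pulled by the chaperone motor that the inner membrane recruits, and the matrix processing peptidase removes the presequence. Carrier proteins are escorted by small TIM chaperones to the TIM22 complex, barrel proteins are inserted by the SAM complex, and cysteine-rich proteins are trapped between the membranes by a disulfide relay. Activated T cells enlarge their mitochondria as they grow, which draws on this machinery.

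The libraries held between 20007042 and 25321455 reads assigned to genes. Values below are normalised reads, meaning reads divided by 1 size factor per library. The ribosomal RNA gene Rn45s took 2.20% of the reads of DMSO replicate 2 and between 0.716% and 1.12% of the other 3 libraries. Markers of T cells were present in every library, and Cd3e and Cd4 were not called different (limma adjusted p = 0.731 and 0.197). Among the Th17 markers Il17a, Il17f and Ccr6 fell. Of 5 B cell markers 4 fell, and their summed level was 3041 and 3162 normalised reads in DMSO and 1733 and 1787 with TMP269, with none of them at 0 in all libraries. Of 4 myeloid markers Cd68 rose 3.09-fold, while Csf1r and Itgam had means of at most 15.3 normalised reads in either group and Lyz2 was too low to be tested. The 2 NK cell markers were at 0 to 2.41 normalised reads when summed. The part of these other cells in the import results was not tested. In such bulk samples fewer cells of a type and less RNA per cell cannot be told apart.

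Import genes fell with TMP269 in each complex of the machinery, and none rose. Of the 35 members, 33 had at least 10 normalised reads in at least 2 libraries and were tested. The limma model, fitted on log2(value + 1) over all tested genes with Benjamini-Hochberg adjustment, called 17 of the 33 lower and 0 higher at an adjusted p under 0.05. The edgeR quasi-likelihood test on recovered reads also called 17 lower and 0 higher, and the limma count of members higher at an unadjusted p under 0.05 was 0. Over all 12535 tested genes, limma called 27.5%, with 14.7% lower and 12.8% higher, and edgeR called 14% lower. Among genes with a mean of at least 300 normalised reads, a range chosen after the values were seen because all but 1 of the tested members lie in it, 19% were called lower. The members' log2 fold changes ran from -0.76 to 0.08 with a median of -0.30, against a median of 0.00 over all tested genes, so that even the largest change was less than 2-fold.

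The groups of libraries did not overlap for most members, nor did they for most tested genes. In 24 of the 33 tested members both TMP269 libraries lay below both DMSO libraries, as in 34% of all tested genes. Gfer alone among the members had both TMP269 libraries above both DMSO libraries, as in 32.6% of all tested genes. The remaining 8 overlapped, as did 4187 of all 12535 tested genes. All 35 members together took 0.254% and 0.265% of the reads in DMSO replicates 1 and 2, and 0.217% and 0.226% in TMP269 replicates 1 and 2. These shares do not use the size factors, and they too were lower in both TMP269 libraries. The replicates were not level with each other. DMSO replicate 2 was above DMSO replicate 1 in 30 of the 33 members, and TMP269 replicate 2 above TMP269 replicate 1 in 23. With DMSO replicate 2 left out 6 members were called lower, and with TMP269 replicate 1 left out 9 were. The number was 16 when either of the other 2 libraries was left out, all of them among the 17 for DMSO replicate 1 but 12 of them for TMP269 replicate 2. A smaller share of all tested genes was also called lower without DMSO replicate 2 or TMP269 replicate 1. The smaller counts there are thus not particular to the members. Scaling to equal library totals moved the median of all genes to 0.10 and the share of higher genes among all calls from 46.5% to 67.3%. With that scaling 11 members were called lower and 0 higher. The share of all tested genes called lower was then 8.31%, against 14.7% with the size factors. The members' median lay 0.29 below that of all genes on the log2 scale, as with the size factors. Scaling a whole library shifts all genes nearly alike, so this distance was bound to stay nearly the same and is no check of the fall.

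**Figure D1:**
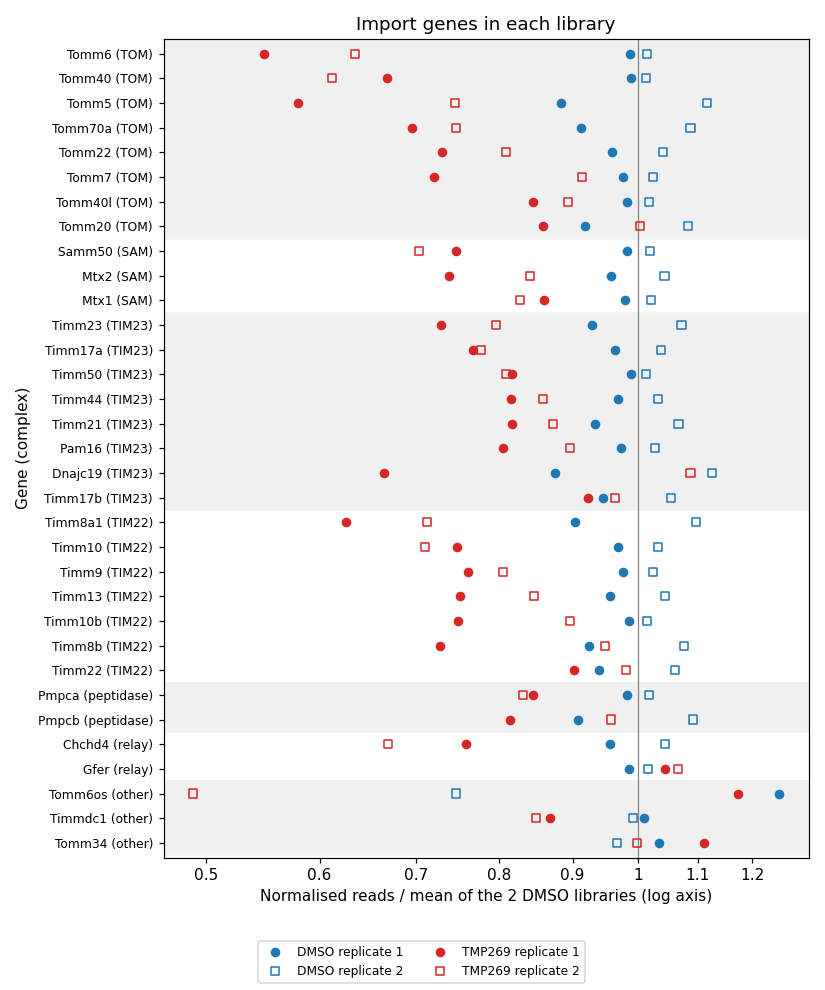
Each point is 1 library, as normalised reads divided by the mean of the DMSO libraries (log axis), for the 33 tested members grouped by complex. In 24 genes both red TMP269 points lie left of both blue DMSO points, Gfer shows the opposite order, and replicate 2 (open squares) lies to the right of replicate 1 in most genes.

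The TOM complex held the largest changes. It has 9 members here, of which 8 were tested and 5 fell, with a median log2 fold change of -0.42. Tomm40 encodes the barrel that forms the entry pore. It was at 3652 and 3740 normalised reads in DMSO replicates 1 and 2, and at 2469 and 2261 in TMP269 replicates 1 and 2. Every TMP269 value was below every DMSO value, and the gene was 1.56-fold lower (log2 fold change -0.65 ± 0.08, SE, limma adjusted p = 0.00112). The small subunits Tomm5 and Tomm6 sit beside this pore and help to assemble and stabilise the complex. Tomm6 was at 1728 and 1775 in DMSO and at 961 and 1113 with TMP269. This was the largest change of any member, 1.69-fold (log2 fold change -0.76 ± 0.09, SE, limma adjusted p = 0.00113), and the groups were far apart relative to their replicates. Tomm5 was at 1781 and 2249 in DMSO and 1168 and 1502 with TMP269, with replicate 2 the higher in both groups (log2 fold change -0.60 ± 0.14, SE, limma adjusted p = 0.0151).

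The receptors of the TOM complex, which bind precursors on the cytosolic face, did not all pass the test. Tomm70a, a receptor for carrier precursors and their chaperones, was at 5304 and 6319 in DMSO and 4045 and 4339 with TMP269, a 1.38-fold fall (limma adjusted p = 0.00953). Tomm22, the central receptor that links the pores, was at 2657 and 2883 in DMSO and 2022 and 2241 with TMP269, a 1.30-fold fall (limma adjusted p = 0.0134). Tomm20, the main presequence receptor, was at 5502 and 6490 in DMSO and 5149 and 6009 with TMP269. Its groups overlapped and it was not called (log2 fold change -0.10, 95% interval -0.35 to 0.14, limma adjusted p = 0.503), and the sign of its change turned with equal library totals (0.000965), without DMSO replicate 2 (0.0158) and without TMP269 replicate 1 (0.00805). Tomm7, a small regulatory subunit, was at 1622 and 1703 in DMSO and 1198 and 1520 with TMP269 and missed the threshold (limma adjusted p = 0.0811, but 0.00675 without TMP269 replicate 2). Tomm40l, a second pore gene, was at 893 and 926 in DMSO and 769 and 813 with TMP269 (limma adjusted p = 0.127). Tomm20l had at most 1 read in any library and was not tested. The Tomm40, Tomm6 and Tomm70a calls were kept under all 13 alternatives tried. Those of Tomm22 and Tomm5 were lost without DMSO replicate 2 (limma adjusted p = 0.0633 and 0.0638), and that of Tomm22 also without TMP269 replicate 1 (0.0879).

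**Figure D2:**
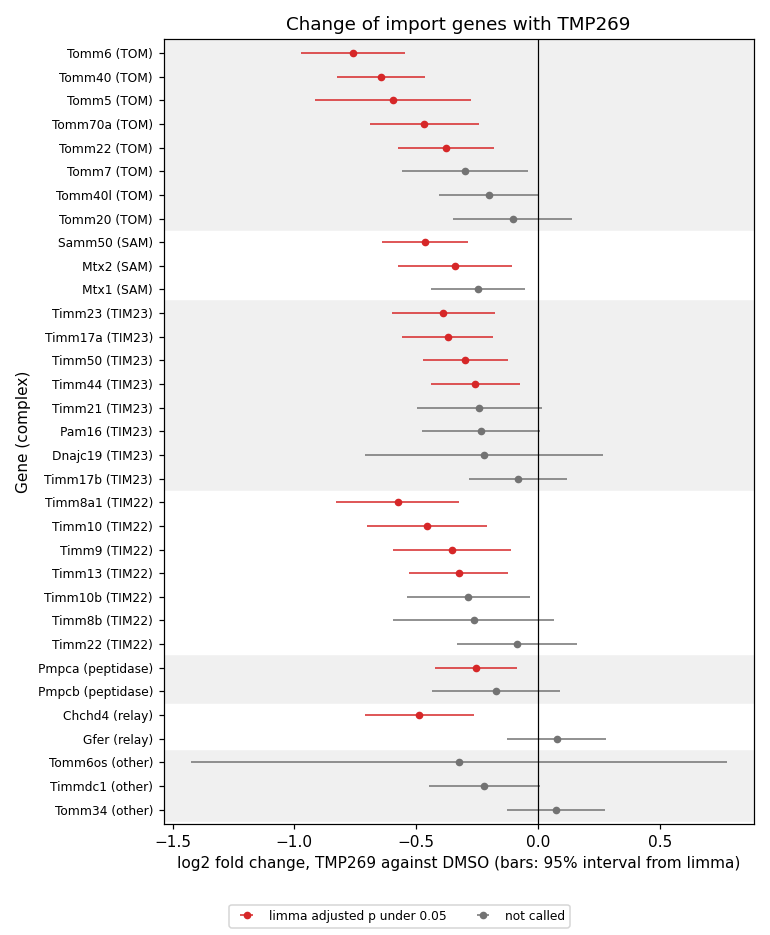
Points give the log2 fold change of each tested member, TMP269 against DMSO, with the 95% interval from limma, red where the adjusted p was under 0.05. The 17 red points all lie left of 0, from -0.76 for Tomm6 to -0.25 for Pmpca, and 2 points, Gfer and Tomm34, lie to its right.

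The 3 members of the SAM complex, which inserts barrel proteins into the outer membrane, all had TMP269 values below DMSO values, and 2 of them fell. Samm50 encodes the barrel at the core of the complex and was at 3500 and 3633 normalised reads in DMSO and at 2662 and 2510 with TMP269. It was 1.38-fold lower (log2 fold change -0.46 ± 0.08, SE, limma adjusted p = 0.00369), and the call was kept under all 13 alternatives. The metaxin gene Mtx2, whose protein docks on the cytosolic side of SAM, was at 861 and 938 in DMSO and 665 and 756 with TMP269. It fell 1.27-fold (limma adjusted p = 0.0382), a call lost without DMSO replicate 2 (0.171), without TMP269 replicate 1 (0.241) and with equal library totals (0.1000). Its partner Mtx1 was at 1172 and 1222 in DMSO and 1028 and 990 with TMP269 and missed the threshold (limma adjusted p = 0.0596).

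In the TIM23 complex and its motor, 4 of 8 tested members fell and the other 4 were not called. Timm23, which encodes the central channel subunit, was at 5002 and 5774 normalised reads in DMSO and 3928 and 4292 with TMP269. It was 1.31-fold lower (log2 fold change -0.39 ± 0.09, SE, limma adjusted p = 0.0163). Timm50, the receptor that takes presequences over from TOM, was at 1835 and 1880 in DMSO and 1518 and 1503 with TMP269 (1.23-fold lower, limma adjusted p = 0.0215). Its replicates lay close together and the groups were apart. Timm44, which tethers the matrix chaperone to the channel, was at 1905 and 2032 in DMSO and 1606 and 1689 with TMP269 (1.19-fold lower, limma adjusted p = 0.0450).

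The channel partner of Timm23 has 2 genes, and they were measured at different sizes of change. Timm17a was at 1620 and 1744 in DMSO and 1291 and 1308 with TMP269 and was 1.29-fold lower (limma adjusted p = 0.0117). Timm17b, on the X chromosome in RefSeq, was at 1261 and 1405 in DMSO and 1230 and 1284 with TMP269, overlapped and was not called (log2 fold change -0.08, 95% interval -0.28 to 0.12, limma adjusted p = 0.519), with the sign turned at equal library totals (0.0216). The ratio of Timm17a to Timm17b reads was 1.29 and 1.24 in DMSO and 1.05 and 1.02 with TMP269, a ratio that scaling a library as a whole leaves nearly the same. The ratio of Tomm40 to Tomm40l was 4.08 and 4.03 in DMSO and 3.21 and 2.78 with TMP269. For both pairs the groups did not overlap, and the exact two-sided permutation test over the 4 libraries gave p = 0.333, the smallest it can give with 2 against 2. Of 4 pairs compared, Timm8a1 to Timm8b gave the same exact p, and Pmpca to Pmpcb overlapped between groups (exact permutation p = 0.667).

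The remaining TIM23 members did not pass. Timm21, which links TIM23 to the respiratory chain, was at 499 and 571 in DMSO and 437 and 466 with TMP269 (limma adjusted p = 0.146). Pam16, a regulator of the motor, was at 574 and 607 in DMSO and 475 and 529 with TMP269 (limma adjusted p = 0.134). Both had separate groups. Dnajc19, the J-protein that stimulates the motor's chaperone, was the most variable of the translocase genes, at 433 and 556 in DMSO and 329 and 538 with TMP269 (limma adjusted p = 0.471). Its change was -0.58 without TMP269 replicate 2 (limma adjusted p = 0.0133) and 0.13 without TMP269 replicate 1, and a processed copy named Dnajc19-ps stands in RefSeq, with which counting could have split its reads. The Timm23 and Timm17a calls were lost without DMSO replicate 2 (limma adjusted p = 0.0814 and 0.0624), that of Timm23 also without TMP269 replicate 1 (0.0811). The Timm44 and Timm50 calls were each lost when any of the libraries other than DMSO replicate 1 was left out (limma adjusted p = 0.0879 to 0.247), and with equal library totals (0.151 and 0.0920).

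In the carrier pathway 4 of 6 tested small TIM chaperones of the intermembrane space fell, and the TIM22 channel gene was not called. The 7 tested members together had a median log2 fold change of -0.32. Timm8a1, whose human counterpart is mutated in a deafness and dystonia syndrome, was at 1695 and 2059 normalised reads in DMSO and at 1175 and 1337 with TMP269. The groups did not overlap, and the gene was 1.49-fold lower (log2 fold change -0.58 ± 0.11, SE, limma adjusted p = 0.00682). Timm13, with which Timm8a1 forms a chaperone ring, was at 2895 and 3165 in DMSO and 2278 and 2564 with TMP269 (1.25-fold lower, limma adjusted p = 0.0274). Timm9 and Timm10 form the other main ring. Timm9 was at 514 and 539 in DMSO and 401 and 424 with TMP269 (1.28-fold lower, limma adjusted p = 0.0385), and Timm10 was at 503 and 537 in DMSO and 389 and 369 with TMP269 (1.37-fold lower, limma adjusted p = 0.0158). Both genes of this ring thus stood below DMSO by more than the spread between replicates.

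Timm22, the channel through which carriers enter the inner membrane, was at 573 and 648 in DMSO and at 551 and 598 with TMP269. It overlapped between groups (log2 fold change -0.09, 95% interval -0.33 to 0.16, limma adjusted p = 0.587), and its sign turned with equal library totals (0.0186) and without DMSO replicate 2 (0.00248). Timm10b, a small TIM bound to that channel, was at 740 and 761 in DMSO and 562 and 672 with TMP269 (limma adjusted p = 0.0873, but 0.0386 without TMP269 replicate 2). Timm8b was at 503 and 585 in DMSO and 396 and 516 with TMP269 (limma adjusted p = 0.206, but 0.0409 without TMP269 replicate 2). Timm8a2 had at most 1 read in any library and was not tested. A further TIM22 subunit, Timm29, stands in the table under its older symbol 1810026J23Rik and so is no member by the rule. It was at 1024 and 1030 in DMSO and 901 and 829 with TMP269 (limma adjusted p = 0.0700). The Timm8a1 call was kept under all 13 alternatives. That of Timm10 was lost when DMSO replicate 2 (0.0842) or TMP269 replicate 2 (0.0603) was left out. That of Timm13 was lost when DMSO replicate 2 (0.125) or TMP269 replicate 1 (0.200) was left out, and with equal library totals (0.0732). The Timm9 call was lost without any 1 of the 4 libraries (limma adjusted p = 0.0663 to 0.190) and with equal library totals (0.108).

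RefSeq promoter windows, running from 250 bases before to 50 bases after the gene start, were found for 32 of the 35 members. They were searched on both strands for the core palindrome of the site of NRF1, for CCGGAAGT, a site of ETS factors such as GABP, and for CACGTG, the E-box of MYC and related factors. The letters of the sites do not overlap one another in the windows shown. The ETS letters stood in 7 of 30 tested members with a window (23.3%), in 9.2% of the 9427 tested genes with a window and in 3.89% of all 32851 windows. Members called lower and members not called held it at like shares, 4 of 17 and 3 of 13. The E-box stood in 5 of 30 members (16.7%), 11.9% of tested genes and 7.15% of all windows. The NRF1 letters stood in 0 of 30 members and in 2.42% of tested genes. Windows of 3 members are shown because their genes fell and together they hold both kinds of match. They are written 5′ to 3′ on the strand of the gene in GRCm38.p6, with the ETS and E-box letters in capitals.
Tomm70a (chr16:57121464-57121763, plus strand, 1 ETS match): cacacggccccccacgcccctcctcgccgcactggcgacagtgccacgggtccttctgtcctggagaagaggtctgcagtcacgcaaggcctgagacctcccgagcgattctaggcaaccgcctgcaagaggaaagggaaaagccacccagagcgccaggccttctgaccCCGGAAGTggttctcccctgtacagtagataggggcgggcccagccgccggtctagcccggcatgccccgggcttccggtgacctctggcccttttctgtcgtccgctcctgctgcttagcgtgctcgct
Timm10 (chr2:84826771-84827070, plus strand, 1 ETS match and 1 E-box): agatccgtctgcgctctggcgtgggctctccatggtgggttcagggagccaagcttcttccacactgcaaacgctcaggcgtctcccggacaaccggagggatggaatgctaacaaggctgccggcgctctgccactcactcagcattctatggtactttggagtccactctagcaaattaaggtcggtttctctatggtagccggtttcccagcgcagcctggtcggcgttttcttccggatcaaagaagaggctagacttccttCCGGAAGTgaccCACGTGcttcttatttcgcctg
Timm8a1 (chrX:134541621-134541920, minus strand, 2 E-boxes): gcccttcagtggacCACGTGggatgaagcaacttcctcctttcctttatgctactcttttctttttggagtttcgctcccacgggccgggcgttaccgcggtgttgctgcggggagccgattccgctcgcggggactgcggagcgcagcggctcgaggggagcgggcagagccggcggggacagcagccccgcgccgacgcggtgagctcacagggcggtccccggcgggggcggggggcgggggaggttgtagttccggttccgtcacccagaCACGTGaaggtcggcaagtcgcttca
A match is a stretch of letters and was not measured as a bound site here. Tomm40, Tomm6, Samm50 and Chchd4, which also fell, held none of the 3 motifs in their windows.

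The matrix processing peptidase has 2 subunits. Pmpca, the substrate-binding subunit, was at 3386 and 3505 normalised reads in DMSO and at 2911 and 2864 with TMP269, and was 1.19-fold lower (log2 fold change -0.25 ± 0.07, SE, limma adjusted p = 0.0339). Pmpcb, the catalytic subunit, was at 1271 and 1528 in DMSO and 1140 and 1339 with TMP269, with overlapping groups (log2 fold change -0.17, 95% interval -0.44 to 0.09, limma adjusted p = 0.291). The Pmpca call was lost without DMSO replicate 2 (0.131), TMP269 replicate 1 (0.143) or TMP269 replicate 2 (0.174), and with equal library totals (0.144).

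The 2 enzymes of the disulfide relay differed in the sign of their change. Chchd4, the oxidoreductase that folds cysteine-rich proteins as they enter the intermembrane space, was at 1126 and 1229 normalised reads in DMSO and at 893 and 788 with TMP269. It fell to 0.714-fold (log2 fold change -0.49 ± 0.10, SE, limma adjusted p = 0.00831), a call kept under all 13 alternatives. Gfer, the sulfhydryl oxidase that reoxidises it, was at 751 and 774 in DMSO and 796 and 813 with TMP269. Both TMP269 values were above both DMSO values, but the difference did not pass (log2 fold change 0.08, 95% interval -0.13 to 0.28, limma adjusted p = 0.554).

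The name prefix also caught 3 genes that encode no translocase subunit. Tomm34, a cytosolic cochaperone, was at 1626 and 1521 in DMSO and 1747 and 1569 with TMP269 (limma adjusted p = 0.561). Timmdc1, an assembly factor of respiratory complex I, was at 572 and 562 in DMSO and 492 and 482 with TMP269 (limma adjusted p = 0.133). Tomm6os, a non-coding RNA gene that overlaps Tomm6 in RefSeq, was at 24.3 and 14.5 in DMSO and 22.7 and 9.50 with TMP269 (limma adjusted p = 0.648). None of the 3 was called. Whether counting used strand is not stated in the labels, so reads of Tomm6 and Tomm6os cannot be told apart where the genes overlap. Tomm6 also shares ground with Frs3, Gm20517 and Usp49 in RefSeq. Other members share ground with neighbours there as well, among them Timm9 with Tomm20l, Dnajc19 with Fxr1 and Pmpca with Inpp5e.

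**Figure D3:**
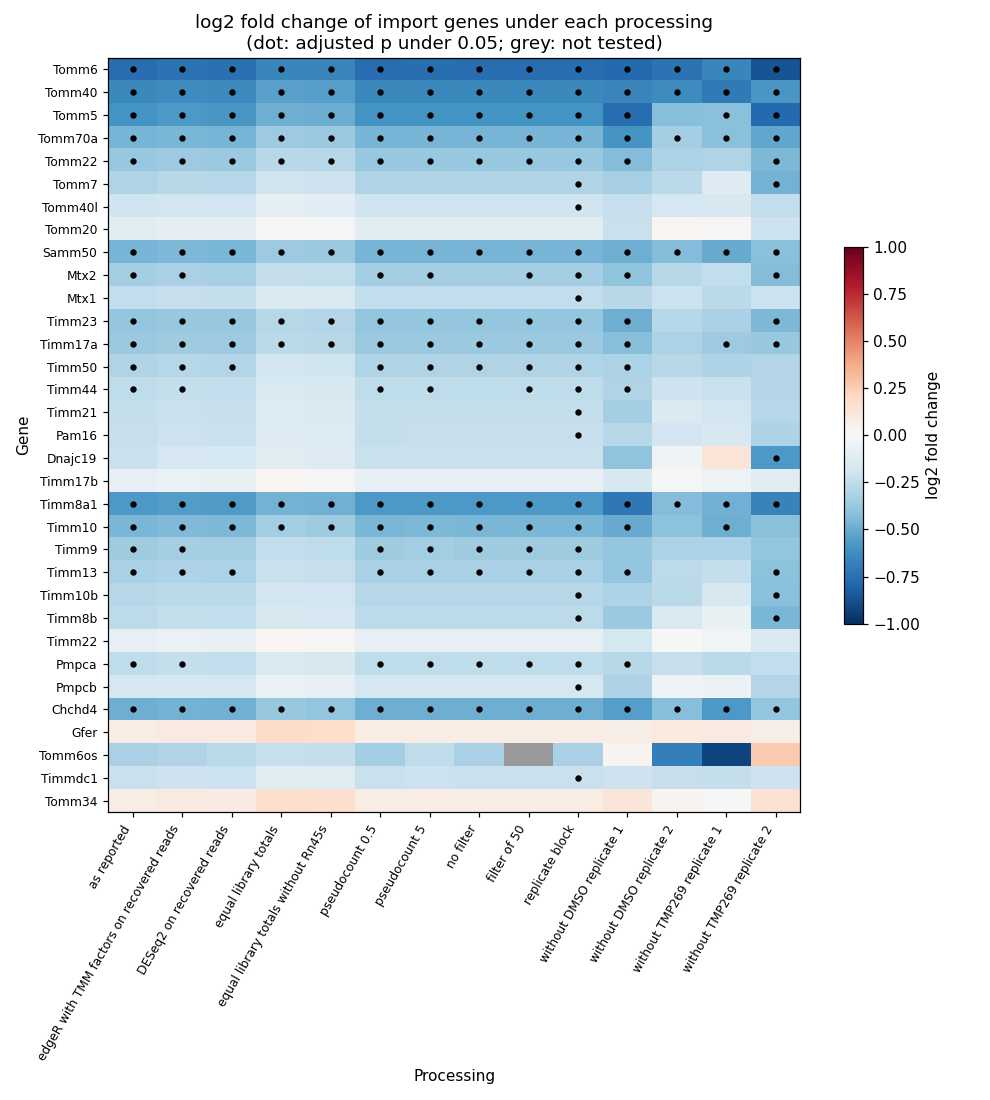
Colour gives the log2 fold change of each tested member (rows) under each processing (columns), with a dot where the adjusted p was under 0.05. Rows for Tomm6, Tomm40, Tomm70a, Samm50, Timm8a1 and Chchd4 carry a dot in every column, while the column that leaves out DMSO replicate 2 carries 6 dots and that for TMP269 replicate 1 carries 9.

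Genes that work next to the import machinery were called lower more often than the 14.7% of all tested genes in 5 lists, but in 3 of these most members were not called. Among genes with a mean of at least 300 normalised reads the share lower was 19%. Among motor and folding partners in the matrix, 5 of 7 fell (71.4%) and 0 rose, with a median log2 fold change of -0.40. Hspd1, the matrix chaperonin Hsp60, was at 18402 and 20916 normalised reads in DMSO and 12937 and 12271 with TMP269 (0.642-fold, limma adjusted p = 0.00258). Hspa9, the Hsp70 that drives the motor, was at 15323 and 17432 in DMSO and 12152 and 12336 with TMP269 (0.749-fold, limma adjusted p = 0.0131), a call lost when DMSO replicate 2 (0.0612) or TMP269 replicate 1 (0.0686) was left out. With either of those libraries left out, 2 members of this list were called lower. Of 17 proteases and insertases of the inner membrane and matrix 5 fell (29.4%), 12 were not called and 0 rose, with a median log2 fold change of -0.24. Among those that fell were the matrix protease gene Lonp1 at 0.642-fold (limma adjusted p = 0.00211) and the inner membrane protease gene Afg3l2 at 0.701-fold (limma adjusted p = 0.00196). Oxa1l, which inserts proteins from the matrix side, did not pass, at 0.911-fold (limma adjusted p = 0.238).

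Of 14 outer membrane and cristae-organising partners 8 fell (57.1%) and 0 rose, with a median of -0.29. The outer membrane channel gene Vdac1 went from 10215 and 10497 normalised reads in DMSO to 5690 and 5801 with TMP269 (0.555-fold, limma adjusted p = 3.15e-04), a larger change than that of any import gene, and Romo1, a small inner membrane protein gene, fell to 0.647-fold (limma adjusted p = 0.00647). Among 15 measured partners and substrates of the disulfide relay 5 fell (33.3%), 10 were not called and 0 rose, with a median of -0.28. The complex I subunit genes Ndufb7 and Ndufa8 were at 0.705-fold and 0.723-fold (limma adjusted p = 0.00299 and 0.00466). Ndufb7, Ndufa8 and Cox6b1, which also fell, are counted again among the respiratory chain genes below. Of 12 cytosolic factors that deliver precursors 5 fell (41.7%), 7 were not called and 0 rose, with a median of -0.22. Those that fell included the cochaperone gene Stip1 at 0.702-fold and Hsp90aa1 at 0.676-fold (limma adjusted p = 0.00356 and 0.00888). The number called lower in the outer membrane list was 4 without DMSO replicate 2 or TMP269 replicate 1 and 5 with equal library totals. In the cytosolic list it was 2 without DMSO replicate 2 or either TMP269 library, and also 2 with equal library totals.

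Of the 4 genes of import surveillance 3 were tested, and 2 of them rose, where 12.8% of all tested genes were called higher. Atf5, a transcription factor of the mitochondrial unfolded protein response, was at 297 and 308 normalised reads in DMSO and 466 and 542 with TMP269 and rose 1.66-fold (limma adjusted p = 0.00369). Pink1, the kinase that accumulates on mitochondria whose import has failed, was at 492 and 556 in DMSO and 664 and 755 with TMP269 and rose 1.35-fold (limma adjusted p = 0.0216, but 0.0774 without DMSO replicate 1 and 0.114 without TMP269 replicate 2). Atad1, an outer membrane extractor of misplaced proteins, was not called (limma adjusted p = 0.412), and Park2 was too low to be tested.

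**Figure D4:**
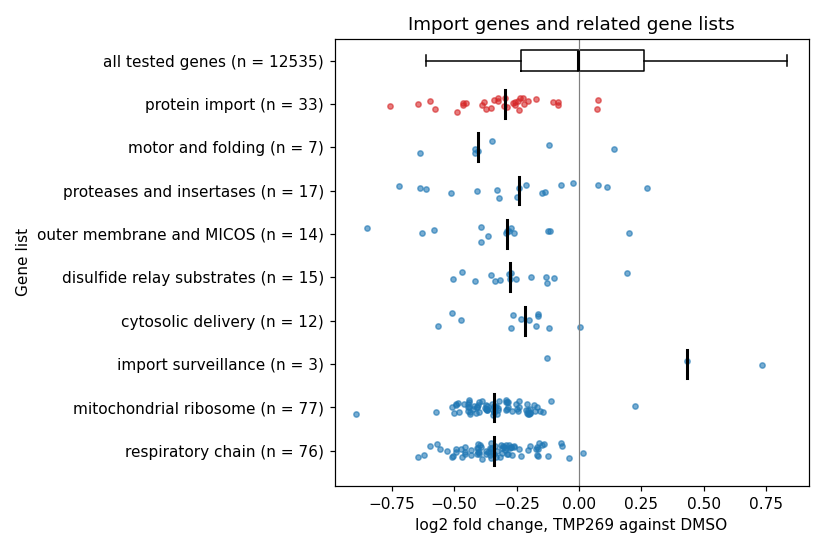
Each point is the log2 fold change of 1 tested gene, TMP269 against DMSO, by list, with black bars at the list medians; the box gives the quartiles of all tested genes and its whiskers the 5th and 95th percentiles. The import genes have a median of -0.30, between the proteases and insertases (-0.24) and the mitochondrial ribosome and respiratory chain (both -0.34), while in the surveillance list 2 of 3 points lie right of 0.

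Other nuclear-encoded mitochondrial genes fell as well. Among 77 tested mitochondrial ribosomal protein genes 43 fell and 0 rose (55.8% lower), with a median log2 fold change of -0.34, and among 76 tested respiratory chain subunit genes 51 fell and 0 rose (67.1% lower), also with a median of -0.34. For the import genes the share lower was 51.5%. The differences between these lists were not tested. The smallest p-values in the ribosomal list belonged to Mrps28 (0.539-fold, limma adjusted p = 0.00185) and Mrpl15 (0.673-fold, limma adjusted p = 0.00364), and in the respiratory list to Ndufv3 (0.640-fold, limma adjusted p = 0.00114) and Uqcr11 (0.650-fold, limma adjusted p = 0.00164). Tomm6 and Tomm40 (0.591-fold and 0.639-fold) thus lay in the range of these largest changes. The counts of both lists depended on the same libraries as those of the import genes, with 13 and 26 called lower when DMSO replicate 2 was left out, 20 and 23 when TMP269 replicate 1 was, and 20 and 27 with equal library totals.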

How the data were processed

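RNA sequencing of polyadenylated RNA was analysed for 4 libraries, 2 with TMP269 and 2 titled DMSO. The 6 chromatin libraries were not analysed here. The deposited table holds a normalised signal, read counts that the authors divided by 1 size factor per library. Each factor was inferred from the values, by taking the smallest value above 0 in its library as 1 read. Multiplying by these inferred factors (0.829 to 1.11) gave whole reads for 100% of values, within 1e-06. The submitters' processing notes name CASAVA 1.4, Bowtie2, TopHat2 2.1.0, HTSeq, DESeq2 and mm9 without their roles, and no annotation, strand setting or rule for multiply matching reads.

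Values were tested as log2(value + 1) with limma 3.58.1 (R 4.3.3) and a mean-variance trend, on genes with at least 10 in at least 2 libraries. Fold changes are on that scale. Tests were two-sided, with Benjamini-Hochberg adjustment over all tested genes and a threshold of 0.05. An exact test of 2 against 2 libraries cannot go below p = 0.333, so each adjusted p rests on spread shared across genes. Alternatives were edgeR 4.0.16 with TMM factors and DESeq2 1.42.0 on recovered reads, equal library totals, pseudocounts of 0.5 and 5, no filter, a filter of 50, a replicate block and each library left out, where a library that stands alone borrows its spread from the rest. Equal totals without Rn45s were an alternative chosen after seeing the data.

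The members and gene lists were chosen with earlier results of these data known, and the pairs set in ratio after values were seen. Values per library are given for called members and central subunits. From each list, up to 2 called genes in each direction with the smallest p are named, with Hspa9, Hspd1 and Oxa1l in any case. Promoter windows and neighbours came from RefSeq (GRCm38.p6), with 35 of 35 members matched by symbol in the gene table. The fit was tested on simulated data, with independent libraries and changes larger than those of most called members. That test does not cover the smaller changes of those members, or replicates that deviate together. Of the Th17 markers checked, 1 is not reported here.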

Additional observations from a re-analysis of the deposited data

How the results depend on the processing

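With every alternative 0 members were called higher, and the members' median log2 fold change stayed negative. Equal library totals gave 11 members lower and a median of -0.19 (11 and -0.20 without Rn45s), and lists lower of 5 outer membrane, 2 cytosolic, 20 ribosomal and 27 respiratory genes (5, 3, 25 and 30 without Rn45s). Over all tested genes the share called lower was 8.31% with equal totals, 9.18% without Rn45s, 12.2% with DESeq2 and 9.25% with no filter. Of 17 called members, 6 were called under all 13 alternatives. DESeq2 called 13 of them (not Mtx2, Pmpca, Timm44 and Timm9), a fit with no filter 15 (not Mtx2 and Timm44), and edgeR the same 17.

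The replicate numbers are shared between groups, but the labels tie them to no animal, batch or day. Same-numbered libraries deviated together (r = 0.37 over 12535 genes). With a replicate block 6360 genes were called, and 26.7% of all tested genes were lower against 14.7% without it. With the block 26 members were lower (all 17 among them), as were 9 protease, 9 relay, 9 cytosolic and 71 ribosomal genes.

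Leaving out 1 library gave 2006 to 3612 genes called, 6 to 16 members lower and a median of -0.39 to -0.25. Lists lower ranged from 2 to 5 (motor), 4 to 8 (outer membrane), 2 to 5 (cytosolic), 13 to 51 (ribosomal) and 23 to 52 (respiratory), and surveillance genes higher from 1 to 2. No called member changed sign under any alternative. Among members not called, signs turned with equal library totals for Timm17b (0.0216, and 0.0127 without Rn45s), Timm22 (0.0186, and 0.00974 without Rn45s) and Tomm20 (0.000965). With 1 library left out the range was -0.91 to 0.26 for Tomm6os, -0.17 to 0.00248 for Timm22, -0.22 to 0.0158 for Tomm20, -0.58 to 0.13 for Dnajc19 and -0.00322 to 0.15 for Tomm34. The causes were not tested. With 2 libraries a group, a member that was not called may still differ within the interval given for it.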
